A study of Rattus norvegicus with 2 samples.

Results

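The immediate-early transcription factors Fos, Fosb, Jun, Junb, Egr1, Egr2, Egr3, Atf3, Nr4a1 and Ier2 were examined in the rat basilar artery after ligation of both common carotid arteries. These 10 genes were chosen by symbol, as probe sets whose single gene symbol in the platform annotation is one of the 10 names, out of 15037 genes with a named probe set. Each was read by 1 probe set, so all 10 had a value. Between the arrays, Egr2, Fosb and Ier2 were 2.31-fold, 2.29-fold and 2.27-fold higher in the Ligation array. Jun, Egr3, Fos and Atf3 were 1.46-fold, 1.43-fold, 1.41-fold and 1.24-fold higher, whereas Egr1, Junb and Nr4a1 had values of 1.04-fold, 0.97-fold and 0.92-fold.

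Immediate-early genes are switched on within minutes of a stimulus by transcription factors that are already present in the cell, without new protein synthesis. In arteries, growth factors, stretch, altered flow and injury are known stimuli, and MAP kinases, calcium and cyclic AMP carry the signal to serum response factor with its ternary complex partners and to CREB. The transcripts are short-lived, and most of the proteins bind DNA and control a later wave of genes. Handling of a tissue at dissection is known to induce many of the same genes.

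The Ligation array held RNA of the basilar arteries of 4 male Sprague-Dawley rats, pooled in equal amounts, collected 4 weeks after both common carotid arteries (CCAs) were tied. The Sham array held a pool from 4 rats of the same sex, strain and age, 13 months, whose CCAs were exposed but not tied. Blood was flushed out with PBS in the anesthetized animals before dissection, and the time from perfusion to freezing of the artery is not given in the sources used here. The Clariom S rat array gives a signal per probe set, which is a set of short probes for a transcript, and the deposited signal is linear. Each group thus has a single array and no replicates. The values therefore carry no SD and no p-value, the rats of a pool cannot be told apart, and a fold lies between 2 pools. As an internal scale for scatter between the arrays, 14 housekeeping genes had folds from 0.71 to 1.77, with an SD of 0.39 on the log2 scale over the 12 of them with signals below 500000.

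Sequence upstream of the genes is shown for Egr2, Ier2 and Fosb, which were past 2-fold, and for Egr1, a paralog of Egr2 that was not. Each sequence is the 250 bases before the RefSeq start site on the rat assembly GRCr8, written 5′ to 3′ on the strand of the gene. The windows lie at chr20:21054442-21054691, minus strand (Egr2), chr19:40399123-40399372, plus strand (Ier2), chr1:88089185-88089434, minus strand (Fosb) and chr18:26736828-26737077, plus strand (Egr1). Capitals mark a match on either strand to a motif searched: the CArG box, which serum response factor binds, the cyclic AMP response element (CRE, TGACGTCA) that CREB binds, its core (TGACG), the AP-1 site (TGANTCA), the EGR site (GCGNGGGCG) and the TATA box (TATAAA). Every full CRE also holds 2 matches to its core.
Egr2: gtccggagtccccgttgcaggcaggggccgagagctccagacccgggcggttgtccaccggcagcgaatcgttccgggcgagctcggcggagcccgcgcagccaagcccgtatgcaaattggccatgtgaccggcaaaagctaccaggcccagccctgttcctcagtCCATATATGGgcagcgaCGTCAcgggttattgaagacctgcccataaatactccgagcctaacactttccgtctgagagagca
Ier2: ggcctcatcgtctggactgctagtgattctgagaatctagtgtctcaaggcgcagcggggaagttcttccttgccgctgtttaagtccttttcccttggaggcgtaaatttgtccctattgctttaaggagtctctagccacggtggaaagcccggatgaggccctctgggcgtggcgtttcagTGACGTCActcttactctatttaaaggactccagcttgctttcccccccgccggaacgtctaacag
Fosb: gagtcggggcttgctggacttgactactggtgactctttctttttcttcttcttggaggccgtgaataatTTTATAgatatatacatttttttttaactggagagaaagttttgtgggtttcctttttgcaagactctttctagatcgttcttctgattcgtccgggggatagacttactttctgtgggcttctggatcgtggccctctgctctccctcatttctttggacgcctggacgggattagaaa
Egr1: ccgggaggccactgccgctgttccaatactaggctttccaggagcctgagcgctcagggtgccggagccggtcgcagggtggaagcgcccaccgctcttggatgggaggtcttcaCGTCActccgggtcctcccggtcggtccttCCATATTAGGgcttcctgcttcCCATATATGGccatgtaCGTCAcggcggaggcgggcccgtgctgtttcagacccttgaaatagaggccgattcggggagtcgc

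A promoter window was found for 6 of the 10 genes. A CArG box lay in 2 of the 6, against 1.5% of all 33469 promoter windows of the same length. Egr1 had 2 CArG boxes, which began 105 and 83 bases before the start site, and Egr2 had 1, which also began 83 bases before it. In both genes a CRE core followed with its first base 66 bases upstream. Ier2 had the full CRE, again with its first base 66 bases upstream, a motif found in 1.59% of all windows. The core was found in 5 of the 6 windows, against 18.2% of all windows, with 4 matches in Nr4a1, 1 in Junb and none in Fosb. Nr4a1 also had 1 EGR site, a motif present in 4.29% of windows. The Fosb window held 1 TATA box match, 180 bases before the start site and on the opposite strand, and Junb held 1 at 49 bases, against 12.9% of windows. None of the 6 windows held an AP-1 site, which 6.34% of windows did. Egr1 and Egr2 thus shared a pair of motifs at the same distances and had folds of 1.04 and 2.31. Those folds were read at very different brightness, with Sham signals of 343129 and 792. Over the 10 genes, the difference and the mean log2 signal had a Pearson correlation of -0.58. The motif matches describe letters only and show no binding. Only 1 RefSeq start site per gene was searched, so a motif absent from a window, as in Fosb, may lie elsewhere in the gene.

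**Figure D1:**
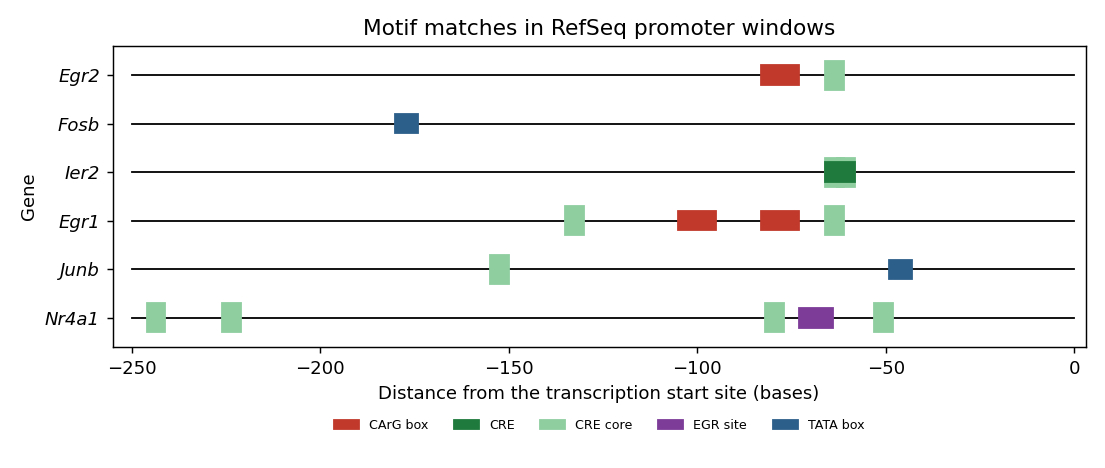
Positions of motif matches in the bases before the start site of 6 immediate-early genes. The x axis gives the distance from the transcription start site in bases, each row is a gene, and colored blocks are matches on either strand. Egr1 and Egr2 share a CArG box 83 bases and a CRE core 66 bases upstream.

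All 10 genes were above background on both arrays, as were 7083 of all 15037 named genes. Background was read from 23 antigenomic probe sets, which match no rat transcript and reached 157 on the Ligation array and 151 on the Sham array. The lowest signal among the 10 genes, that of Egr3 in the Sham array, was 2.14 times this brightest background probe set. No signal of the 10 reached the ceiling at which Actb, encoding β-actin, stood (999963 and 998298). Egr1 came closest, at 35.7% of the highest signal. Gapdh, a glycolytic enzyme, was 1.45-fold higher in the Ligation array.

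Among the FOS proteins, which pair with JUN proteins to form the AP-1 factor, Fosb had the larger fold. Where a pair of signals is given, the value with ligation comes first. The signal of Fosb was 1325 with ligation against 578 with sham surgery, a log2 difference of 1.20. Fos, the founding gene of the family, had 88930 with ligation against 63001 with sham surgery, a log2 difference of 0.50. Both were thus higher after ligation, Fosb outside and Fos inside the range of the housekeeping genes. Fosl2, which encodes the AP-1 subunit FRA-2, had 362 with ligation against 466 with sham surgery (0.78-fold), and Fosl1, which encodes FRA-1, was within background on both arrays (58.6 and 108).

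Among the JUN genes, Jun had the largest fold. Jun, the main partner of FOS, had a signal of 19949.5 with ligation against 13675.8 with sham surgery, a log2 difference of 0.54. Junb, which often restrains JUN activity, had 5837 and 5989.8, a difference of -0.04. Jund, which is expressed steadily and responds little to stimuli, had 4685 and 6033 (0.78-fold). None of the 3 passed 2-fold, and all lay inside the housekeeping range. Atf3, a stress-induced partner of JUN proteins, had 1139.7 and 919.9, a difference of 0.31. Its relatives Jdp2, Batf and Batf3 were within background on both arrays, with folds of 1.00, 0.66 and 0.75.

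Of the EGR genes, which encode zinc-finger activators, Egr2 stood apart. Egr2, known for its role in Schwann cell myelination as well as in early growth responses, had a signal of 1826 with ligation against 792 with sham surgery, a log2 difference of 1.21. Egr3 had 460.3 and 323, a difference of 0.51. Egr1, the EGR gene most studied in injured arteries, had 357417 with ligation against 343129 with sham surgery, a difference of 0.06. Its order between the arrays turned with the scaling, to 0.96-fold with the arrays centred on housekeeping genes and to 0.91-fold after removal of the trend on signal. Egr4 was within background on both arrays (63 and 42.5, or 1.48-fold). Nab1 and Nab2, the corepressors that EGR proteins induce and that hold them in check, were 0.73-fold and 0.74-fold, and Nab2 was within background on both arrays.

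The NR4A genes, orphan nuclear receptors that are induced quickly and need no ligand, were all lower in the Ligation array, by different amounts. Nr4a1 had a signal of 15577 with ligation against 16976 with sham surgery, a log2 difference of -0.12. Nr4a2 had 1429 and 3354 (0.43-fold), and Nr4a3 had 386 and 930.02 (0.42-fold). The latter pair were past 2-fold in the other direction from Egr2, Fosb and Ier2. Both remained under 0.5-fold in each of the 7 alternative treatments of the signals tried, of which the background floor and the brightest probe set could not change them. All 3 genes were above background on both arrays.

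Ier2, a small nuclear regulator of transcription, had a signal of 896 with ligation against 394 with sham surgery, a log2 difference of 1.18. Of the other IER genes, Ier3, which acts in survival signaling, was 1.21-fold, with 13252 and 10913. Ier5, which promotes heat shock factor activity, was 0.86-fold and above background in the Sham array only. Ier5l was within background on both arrays.

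**Figure D2:**
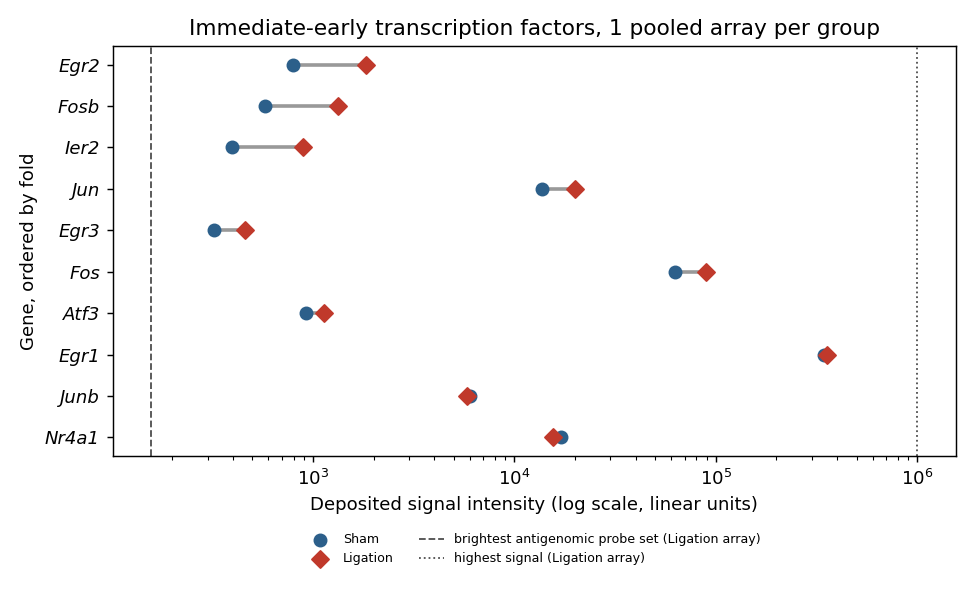
Signal of each of the 10 genes in the Ligation array (diamond) and the Sham array (circle). The x axis is the deposited signal intensity on a log scale, and the dashed and dotted lines mark the brightest background probe set and the highest signal of the Ligation array. Every signal is at least 2.14 times the brightest background probe set of its array, and the gap is widest for Egr2, Fosb and Ier2.

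Set against the whole array, 3 of the 10 genes were over 2.0-fold higher, while 4.04% of the 15037 named genes were. None of the 10 was under 0.5-fold, against 2.97% of named genes. Restricted to the 5367 named genes with a mean signal at least as high as the dimmest of the 10, the background share was 5.63% over 2.0-fold and 3.82% under 0.5-fold. Above 0 were 8 of the 10, compared with 48.7% of all named genes and 56.2% of those 5367. The median difference of the 10 was 0.50 on the log2 scale, and that of all named genes was -0.01. In the order of all named genes by difference, Egr2 was in place 349, Fosb in place 358 and Ier2 in place 372. The remaining 7 began with Jun at place 2087. The gap of 0.02 between Egr2 and Ier2 was far smaller than the housekeeping SD, so these genes have no order among themselves, and the same is true of Jun, Egr3 and Fos.

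The list of paralogs counts Ier3 for its shared name only. Of its 12 genes with a named probe set, 2 were above 0 (Ier3 and Egr4), against 48.7% of all named genes. None of the 12 was over 2.0-fold higher, against 4.04% of named genes. Under 0.5-fold were 2 (Nr4a2 and Nr4a3), against 2.97%. The median difference of the paralogs was -0.39. Within background on both arrays were 6 of the 12, against 7286 of all 15037 named genes. Without those 6 genes the median was -0.36.

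**Figure D3:**
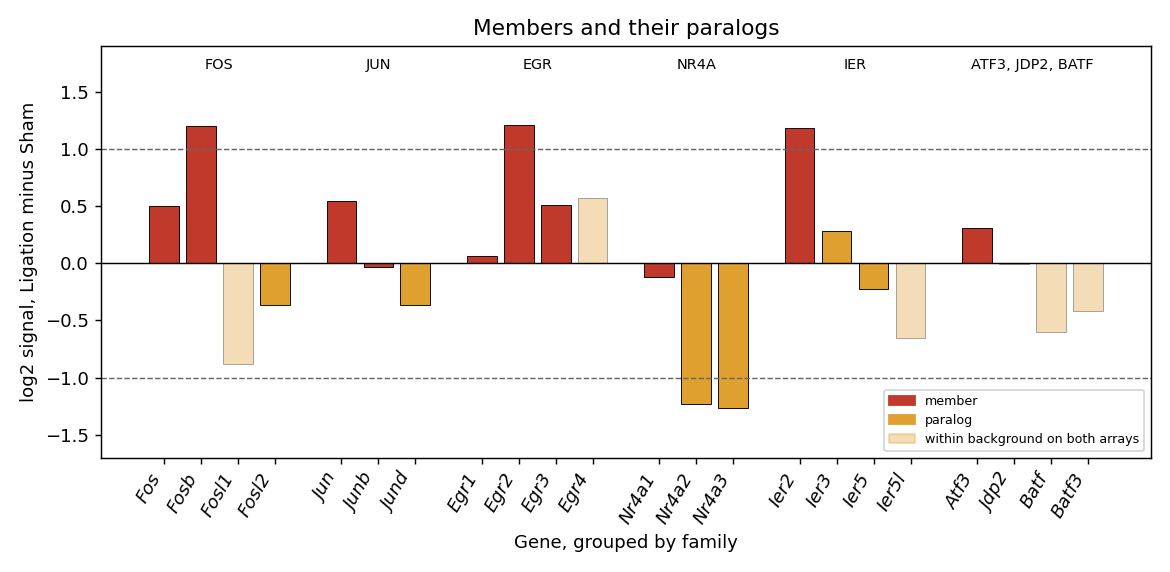
Difference in log2 signal, Ligation minus Sham, of the 10 genes (red) and of their paralogs (orange), grouped by family on the x axis. Ier3 is counted among the paralogs by name. Pale bars are genes within background on both arrays, and dashed lines mark 2-fold in either direction. Fosb, Egr2 and Ier2 are above the upper line, and Nr4a2 and Nr4a3 are below the lower one.

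Genes that relay the stimulus were mixed. Among the 17 upstream kinases and transcription factors that could be read, 2 were past 2.0-fold upward, against 4.04% of all named genes. None of the 17 was under 0.5-fold, against 2.97%. Below 0 were 12 of the 17, against 7682 of all 15037 named genes, and the medians were -0.11 and -0.01. Both of those past 2-fold encode ternary complex factors, which dock on serum response factor at promoters such as those of Egr1 and Egr2. Elk3 had a signal of 1286 with ligation against 523 with sham surgery (2.46-fold), and Elk4 had 1214 and 586 (2.07-fold). Elk4 stayed past 2-fold only in the 2 of the 7 alternative treatments that could not change its value. It was under 2-fold in all the others, and its lowest value was 1.91-fold. Elk1, the ternary complex factor most studied in cell culture, was 1.13-fold, and Srf itself was 0.71-fold. Creb1, which encodes the factor bound at the CRE, was 0.93-fold. The lowest fold of the list was 0.55, for Mef2d, a muscle and neuron factor that also drives Jun and Nr4a1.

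Feedback genes encode the phosphatases that switch off MAP kinases, Sprouty and SPRED inhibitors, and ZFP36 proteins that degrade short-lived transcripts. Of 15 with a named probe set, none passed 2-fold in either direction, against 4.04% upward and 2.97% downward of all named genes. The median of the 15 was -0.11, but 6 of the 15 were within background on both arrays, against 7286 of all 15037 named genes. Without these 6 the median was 0.06. Dusp1, the MAP kinase phosphatase that is itself an immediate-early gene, had 270508 with ligation against 286538 with sham surgery (0.94-fold), and Zfp36, likewise induced early, was 1.06-fold. The highest fold was that of Spred1 (1.53) and the lowest that of Spry2 (0.71).

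Other immediate-early genes, 30 of which had a named probe set, included 4 over 2.0-fold, against 4.04% of all named genes. Under 0.5-fold was 1 of the 30, against 2.97%. Above 0 were 21, against 48.7%, and the median of the 30 was 0.27. Ptgs2, the inducible cyclooxygenase, had the highest fold at 6.53, and the study chose it on these arrays, so its direction here is not independent evidence. The paper also measured Ptgs2 by real-time PCR and reports it higher in ligated rats. Klf10, a zinc-finger gene that TGF-β induces early, followed with 1263 with ligation against 243 with sham surgery (5.20-fold). Sgk1, a kinase induced by serum and glucocorticoids, was 2.46-fold, and Socs3, the feedback inhibitor of cytokine signaling, was 2.55-fold with a Sham signal within background. Gadd45g, a stress gene of the growth arrest family, had 356 and 795 (0.45-fold). Arc and Npas4, which are induced by neuronal activity, were within background on both arrays. Klf2 and Klf4, flow-responsive genes of endothelium, were 1.62-fold and 1.09-fold, and Ccn1, a target of stretch and of serum response factor, was 1.66-fold. The clock gene Per1, which CREB can induce at once, was 0.62-fold.

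Of 19 genes known as targets of AP-1 or EGR proteins, 5 were past 2.0-fold upward, against 4.04% of all named genes. None of the 19 was past it downward, against 2.97%, and their median was 0.42. The chemokine gene Ccl2 (4.30-fold) and Spp1 (4.09-fold), which encodes osteopontin, had the highest folds, and both are also expressed in macrophages. Vegfa, the endothelial growth factor gene, was 2.66-fold with a Sham signal within background. The matrix proteases Mmp3, Mmp9 and Mmp13, classical AP-1 targets, were within background on both arrays, as was Il6. Every target below 0 was within background on both arrays. So were 6 of the 19 targets in all, against 7286 of all 15037 named genes. Without these 6 the median was 0.66. That median is the difference of Plaur, which like Vegfa was kept only through its Ligation signal, so it leans upward.

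Heat shock and metallothionein genes, which handling and dissociation of tissue also induce, were measured for comparison. Of 11 with a named probe set, none was over 2.0-fold or under 0.5-fold, against 4.04% and 2.97% of all named genes. The median difference of the 11 was -0.04. Hspa8 and Hspb1, chaperone genes, were 0.97-fold and 0.92-fold, and Hspa1a, the most inducible of them, was within background with 81.7 on both arrays. The metallothionein gene Mt1 was 0.97-fold. The highest fold was 1.80 for the cochaperone gene Dnajb4, and the lowest was 0.61 for Bag3. Whether the time or manner of dissection differed between the pools cannot be told from the arrays, and its part in the values of Egr2, Fosb and Ier2 was not tested.

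Cell type markers differed between the same arrays, on which 48.7% of all named genes were above 0 and 2.97% were under 0.5-fold. All 11 endothelial markers were above 0 (median 1.21), with a summed signal of 175239 with ligation against 96034 with sham surgery. All 12 macrophage markers were above 0 (median 0.92, summed signal 108309 and 45915), as were all 8 astrocyte markers (median 1.60, 94246 and 46595) and all 6 myelin markers (median 2.03, 36195 and 18756). Gja1 (52323 and 42280, 1.24-fold) made up most of the astrocyte sum, and Cldn11 (20287 and 16630, 1.22-fold) most of the myelin sum. The highest folds in these lists were far larger: Aqp4 17.3, Gfap 15.6, Mbp 13.6 and Mobp 11.9. Smooth muscle markers went the other way, with all 9 below 0, 6 of them under 0.5-fold, and a median of -1.42. Neuron markers had 8 of 10 above 0, none past 2-fold, a median of 0.30 and summed signals of 5438 and 4813, with Rbfox3, which marks neuronal nuclei, at 0.89-fold and Nefl and Syn1 within background on both arrays. Fibroblast markers had 8 of 9 above 0 with a median of 0.36. Of 5 blood cell markers 4 were within background on both arrays, and Hbb, a hemoglobin chain, was 0.71-fold. No marker was at 0 signal on either array, while 1 macrophage marker, 1 astrocyte marker, 1 myelin marker and 3 neuron markers were within background on both. In RNA of a whole artery, fewer cells of a type and less RNA per cell cannot be told apart. The part of these markers in the differences of the immediate-early genes was not tested.

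**Figure D4:**
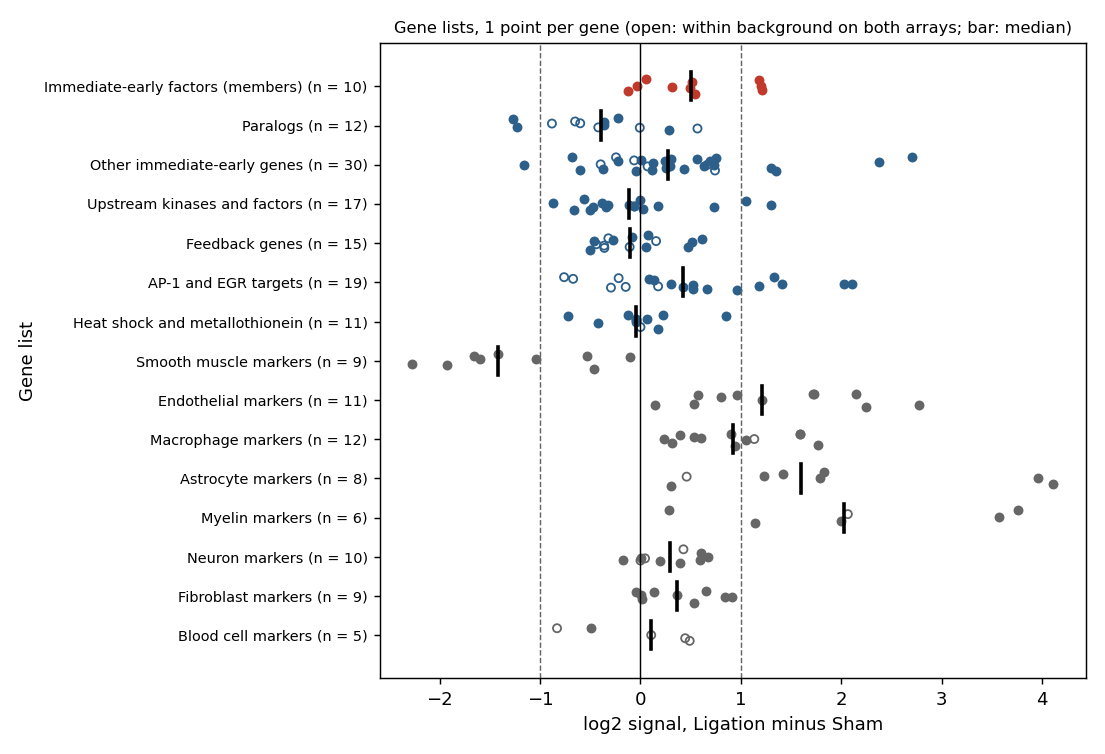
Difference in log2 signal, Ligation minus Sham, for every gene with a named probe set in 15 lists. Each point is a gene, open points are within background on both arrays, black bars are medians, and dashed lines mark 2-fold in either direction. The 10 immediate-early factors have a median of 0.50, feedback and heat shock genes lie around 0, and the marker lists of endothelium, macrophages, astrocytes and myelin lie to the right with smooth muscle to the left.

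The folds of the 10 genes changed little with how the signals were treated. In each of 7 alternatives Egr2, Fosb and Ier2 stayed over 2.0-fold, with lowest values of 2.13, 2.11 and 2.09, and no other gene of the 10 passed 2-fold. The background floor and the brightest probe set per gene could not change the 10, which have 1 probe set each and lie above background. Those alternatives therefore tested nothing here. Fos ranged from 1.25-fold to 1.41-fold and Jun from 1.31-fold to 1.46-fold. Nr4a1 and Junb were below 0 in all of them. Centring on the housekeeping genes takes 0.12 off every difference and left 7 of the 10 above 0, as did removal of the trend on signal. Over all named genes, this centring turned the share of higher genes among those past 2-fold from 57.6% to 40.8%.

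**Figure D5:**
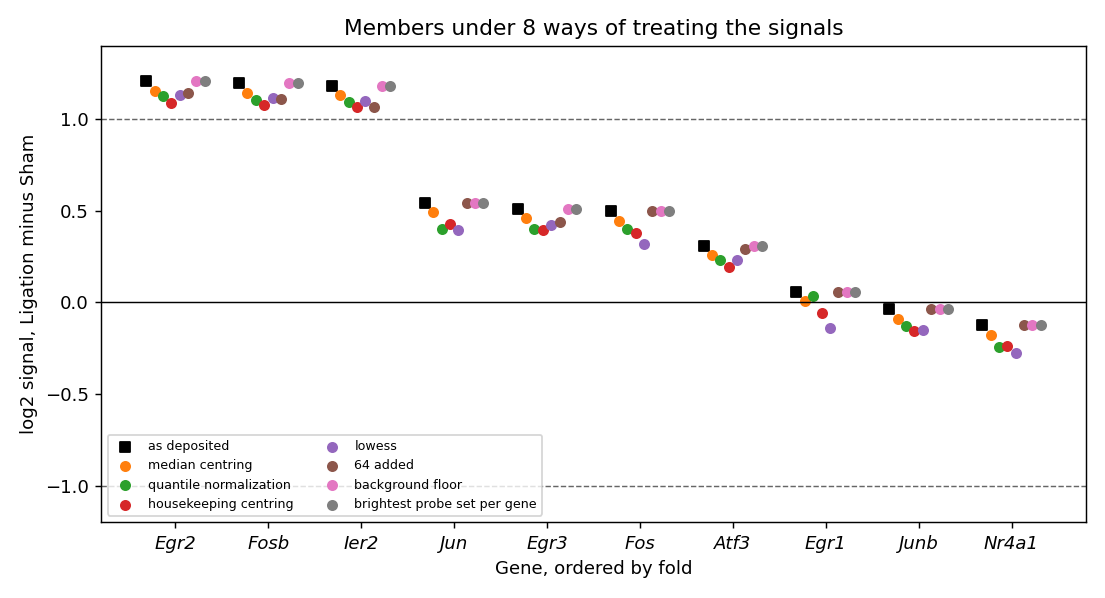
Difference in log2 signal, Ligation minus Sham, of the 10 genes on the deposited signals (black squares) and under 7 alternatives (colored circles). Dashed lines mark 2-fold in either direction. Egr2, Fosb and Ier2 stay above the upper line in all 8, and Egr1 is the gene that crosses 0.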

How the data were processed

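The authors deposited linear signal intensity per probe set for 2 Clariom S rat arrays, made by RMA in Affymetrix Expression Console according to the submitters' processing notes (version and build are not given in the sources used here). Each array was hybridized with labeled cDNA made from 50 ng of a pool to which 4 rats contributed equally. Control probe sets were set aside, which left 23188 gene probe sets, of which 15049 had a symbol, updated through the Entrez identifier against GRCr8 (15049 matched). Log2 was taken and averaged over the probe sets of a gene, and Sham was subtracted from Ligation with no further scaling. A signal no higher than the brightest antigenomic probe set of its array was called within background. Genes over 2.0-fold and under 0.5-fold were counted, and no test was possible with 1 array per group. The number of arrays limits the precision.

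The 10 genes and the lists were chosen with earlier results of these data known. Named by rule were the 10 genes, the paralogs, Actb, Gapdh and, per pathway list, the 2 highest and 2 lowest past 2-fold and above background or, where none passed, the extreme in that direction. Further genes were named for their roles or their values after these were seen.

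The alternatives were median centring, quantile normalization, housekeeping centring, lowess (fraction 0.3), 64 added to each signal, signals raised to at least the brightest antigenomic level, the brightest probe set per gene, thresholds of 1.5-fold and 3-fold, leaving out genes within background, and the mean of a list. Values were compared against the SD of the housekeeping genes and counts at 1.5 times. Fold counting and motif matching were tested on simulated data. The tools were matplotlib 3.10.9, statsmodels 0.14.6, pandas 2.3.3, numpy 2.4.6 and Python 3.11.15.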

Additional observations from a re-analysis of the deposited data

How the results depend on the processing

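Of 70 values of single immediate-early genes under the alternatives, all 70 moved by less than the housekeeping SD. Those under the background floor and the brightest probe set per gene could not move. Median and housekeeping centring shift every gene by the same amount, which was below that SD. Among counts and medians of the 7 lists, 183 values stayed within 1.5 times or that SD and 20 did not. At a 3-fold threshold, the counts of higher genes were 0 of the 10 immediate-early factors, 2 of the other immediate-early genes, 2 of the targets and 0 of the upstream genes, and the counts of lower genes were 0 for paralogs and 0 for other immediate-early genes. At a 1.5-fold threshold, 10 other immediate-early genes, 7 targets, 3 upstream genes, 3 of the 10 factors, 1 feedback gene and 1 heat shock gene were higher. Lower at that threshold were 5 paralogs, 3 other immediate-early genes, 2 upstream genes, 2 targets and 1 heat shock gene. The share of all named genes past 1.5-fold or 3-fold was not computed. These counts therefore cannot be set against the whole array. The count of upstream genes over 2-fold was 1 with median centring, quantile normalization, housekeeping centring, lowess or 64 added, since Elk4 lay close to the threshold. The median of the paralogs was 0.055 with the background floor, which is the value the floor itself gives to genes within background on both arrays, and -0.36 without those genes. No paired analysis was possible because each group has 1 array. No replicate could be left out. Signal over background limits Egr3 most among the 10 genes.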
